A study of Oryza sativa and Arabidopsis thaliana with 24 samples.

Results

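tRNA 3'-halves are fragments that begin in or near the anticodon loop and run to the 3' end of the tRNA. The fragments described here are those that the deposited tables of individual tRNA-derived fragments (tRFs) class as 3'-halves and whose whole sequence lies, without a mismatch, in at least 1 listed mature tRNA of the same species. In Arabidopsis thaliana 339 of the 926 listed 3'-halves met this rule, out of 5826 listed tRFs. In rice (Oryza sativa) 409 of 844 met it, out of 2794 listed tRFs. Together they make 748 of the 8620 listed fragments.

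The study sequenced small RNA from 24 libraries, 2 for each of 12 groups of the 2 species. Arabidopsis plants raised on soil at 23 °C in long days gave rosette leaf, stem leaf (leaf taken from the stem), stem, flower and silique. Rice seedlings raised at 28 °C in Yoshida's nutrient solution gave shoot and root, each untreated (control), after 8 h at 4 °C under continuous light (cold) or after 8 h in 300 mM NaCl (salt), and the last group was panicle. In every library the RNA had been pretreated with the same commercial tRF and tiRNA kit, and the labels used here name no ecotype, cultivar or plant age.

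A mature tRNA folds into a cloverleaf whose anticodon loop reads the codon and whose 3' end carries the bases CCA, the last of which holds the amino acid. Plants make tRNA from genes in the nucleus, the plastid and the mitochondrion, and the plastid set serves protein synthesis inside the plastid. Nucleases of the RNase T2 family are known to cut plant tRNA in the anticodon loop, which leaves a 5'-half and a 3'-half.

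Each level below is in RPM, the read count of a fragment scaled to the depth of its library, from which whole read counts could be recovered. The listed tRFs of a library summed to 159832 to 1293518 reads in Arabidopsis and to 67985 to 434778 reads in rice. The 3'-halves without mismatch held 1065 to 12846 of those reads in Arabidopsis and 4996 to 40796 in rice. RPM are relative to the tRF reads in Arabidopsis but to a larger total in rice, where all tRF reads made 105504 to 146214 RPM, so levels were not compared between the species. The study's design text calls the pairs of libraries biological replicates. The second library of a group was 1.58 to 1.64 times as deep as the first in all 12 groups, and the pairs differed by more than sampling noise (chi-square per degree of freedom 2.60 to 3.37). The tables hold tRNA fragments only, so the tissue labels could not be checked against marker genes. In bulk RNA, fewer cells of a type and less RNA per cell cannot be told apart.

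The sequences that carry the results are printed first. They are written 5' to 3' as DNA, as in the deposited tables, and each name gives the amino acid and anticodon, the tRNA and the bases of that tRNA which the fragment covers. In the 3 whole tRNAs that head each group of fragments, the capitals mark the anticodon and the CCA end. In the fragments the capitals mark what is present of CCA. The Arabidopsis set holds the most abundant fragments, and the Glu-TTC pair differs only by the last A.
at_tR80, plastid Glu-TTC: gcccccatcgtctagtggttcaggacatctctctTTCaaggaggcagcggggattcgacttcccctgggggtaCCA
Glu-TTC at_tR80 37-76: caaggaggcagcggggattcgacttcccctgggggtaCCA
Glu-TTC at_tR80 37-75: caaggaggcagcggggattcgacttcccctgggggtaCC
Leu-TAA at_tR119 49-88: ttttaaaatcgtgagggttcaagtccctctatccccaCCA
Gly-TCC at_tR92 36-75: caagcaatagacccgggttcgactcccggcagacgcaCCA
Val-AAC at_tR223 38-77: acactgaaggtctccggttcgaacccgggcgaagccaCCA
The rice set shows forms of the most abundant parent, os_tR122, that start at different bases and end with or without the last A, and fragments that differed between organs or after stress.
os_tR122, nuclear Gly-GCC: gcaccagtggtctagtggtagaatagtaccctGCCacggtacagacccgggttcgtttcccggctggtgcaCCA
Gly-GCC os_tR122 34-73: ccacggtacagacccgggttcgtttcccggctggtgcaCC
Gly-GCC os_tR122 37-73: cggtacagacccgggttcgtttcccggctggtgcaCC
Gly-GCC os_tR122 37-74: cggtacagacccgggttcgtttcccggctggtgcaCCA
Glu-CTC os_tR92 38-75: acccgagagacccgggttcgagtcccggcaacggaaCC
Ile-AAT os_tR141 37-76: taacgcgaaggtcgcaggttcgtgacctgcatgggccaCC
Glu-TTC os_tR105 38-77: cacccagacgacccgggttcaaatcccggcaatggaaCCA
os_tR114, plastid Gly-GCC: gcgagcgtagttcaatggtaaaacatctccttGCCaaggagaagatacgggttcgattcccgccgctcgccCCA
Gly-GCC os_tR114 41-74: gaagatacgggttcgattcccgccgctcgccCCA

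Positions in the genome are 1-based. The Arabidopsis build is TAIR10, and the printed loci match the reference genome of that build. The Glu-TTC tRNA at_tR80 is the plastid gene trnE (ArthCt097), on the minus strand at chrC:30466-30538, and the fragment 37-76 covers its bases 30466 to 30502 before the added CCA. The Leu-TAA tRNA at_tR119 is the plastid trnL (ArthCt101) at chrC:46894-47490 on the plus strand. Its single intron of 512 nt splits the anticodon, and the fragment 49-88 lies wholly in the second exon, at 47454 to 47490. The Gly-TCC tRNA at_tR92 has 12 identical nuclear loci, among them AT1G08240 at chr1:2588525-2588596. The Val-AAC tRNA at_tR223 has 13, among them AT1G30830 at chr1:10963573-10963646. For rice the coordinates are those of the deposited table, whose build is not given in the sources used here. There os_tR122 lies on the plus strand at chr7:3665825-3665895, os_tR92 on the minus strand at chr1:35798452-35798524 and os_tR141 on the minus strand at chr9:14619962-14620035. The plastid tRNA os_tR114 is listed at 4 loci, and every rice tRNA listed at a plastid locus is listed at nuclear loci too. A plastid origin in rice therefore means that the sequence has a plastid locus, not that its nuclear copies are silent.

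The fragments were 34 to 40 nt long, and 40 nt is also the longest tRF listed in any class. Every one of them ended in CCA or CC. In Arabidopsis 257 ended in the complete CCA and 82 lacked its last A, and in rice the counts were 216 and 193. The first base was placed by numbering the first anticodon base 34, so that the anticodon loop ends at 38 and the 3' strand of the anticodon stem covers 39 to 43. First positions ran from 35 to 48 in Arabidopsis and from 35 to 47 in rice, and no fragment began at the first anticodon base or before it. In Arabidopsis 154 fragments began in the loop, 170 in the stem and 15 beyond it. In rice 241 began in the loop, 157 in the stem and 9 beyond it, and 2 could not be placed. The length limit sets part of this range, because only 43 of 231 Arabidopsis tRNAs and 74 of 293 rice tRNAs could give a fragment of at most 40 nt that starts at 36 or before and carries the complete CCA. At 37 the numbers were 181 and 234, and at 34 they were 1 and 3.

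At some start positions the shares of the first base lay apart from those of all listed tRNAs, which was not tested. At position 36, the third anticodon base, 60.5% of the 43 Arabidopsis fragments began with C, against 20.8% of all listed tRNAs with C there. In rice 45.7% of the 81 fragments at 36 began with C, against 25.9% of tRNAs. At position 37, the base after the anticodon, which is nearly always a purine, 86.7% of the Arabidopsis fragments and 82.4% of the rice fragments began with A, against 71.0% and 74.7% of tRNAs. At position 38, 51.8% of the rice fragments began with C, against 19.8% of tRNAs. Other shares lay closer, such as A at 38 in Arabidopsis (60.4% against 66.7%) and G at 36 in rice (27.2% against 24.6%). The tRNAs set beside the fragments include those that gave no 3'-half of this set. These shares count each listed fragment once, and fragments of related tRNAs share sequence, so no test was made.

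The parents were few. In Arabidopsis 90 of 232 listed tRNAs had a 3'-half without mismatch, of which 57 were nuclear, 23 plastid and 10 mitochondrial. In rice 117 of 299 had one, of which 95 were nuclear, 14 plastid and 8 mitochondrial. A single parent fitted 294 fragments in Arabidopsis and 240 in rice, and 9 and 53 fragments fitted tRNAs of 2 origins. Such a fragment was counted as plastid if any parent was plastid, and otherwise as mitochondrial if any was. Of the families (origin, amino acid and anticodon), 59 in Arabidopsis and 53 in rice had a fragment, and the 5 largest held 32.2% to 57.6% of the 3'-half reads of an Arabidopsis library and 50.2% to 69.1% of a rice library.

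In Arabidopsis the plastid Glu-TTC family, 11 fragments of the tRNA that also serves as a precursor for chlorophyll synthesis, was the largest in leaf and stem. It held 23.1% and 23.1% of the 3'-half reads in the libraries of rosette leaf, 24.3% and 24.5% in stem leaf and 20.4% and 23.0% in stem. In flower it held 8.67% and 8.49%, and in silique 7.23% and 8.59%. The leaf and stem libraries thus all lay above the flower and silique libraries. The nuclear Val-AAC family was highest in stem, at 14.2% and 13.1%, and lowest in rosette leaf, at 2.04% and 2.38%. The nuclear Arg-TCT family held 0.369% to 0.550% in leaf and stem, 2.39% and 1.54% in flower and 7.79% and 9.34% in silique. In rice the nuclear Gly-GCC family was the largest in control shoot, at 19.0% and 17.8%, and in all root groups, at 25.4% to 29.2%. The nuclear Val-AAC family was the largest in both stressed shoot groups and in panicle, with 16.2% to 20.4%. The nuclear Glu-CTC family went from 2.30% and 2.56% in control shoot to 12.9% and 13.5% in control root, and the plastid Pro-TGG family from 13.3% and 11.7% to 0.665% and 0.603%.

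**Figure D1:**
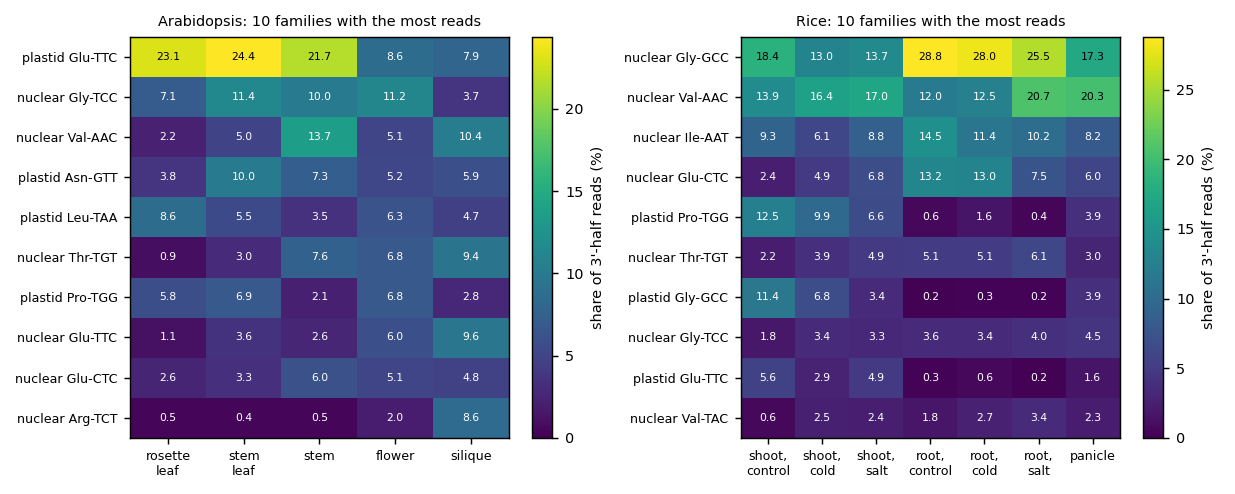
Share of the 3'-half reads (%, mean of 2 libraries, as colour and number) held by the 10 families with the most reads in each species, 1 column per group and a colour scale for each species. Plastid Glu-TTC leads in the leaf and stem columns of Arabidopsis, and nuclear Gly-GCC leads in the root columns of rice.

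In the shares that follow, 3'-halves with a mismatch count only in the total of listed tRF reads. The 3'-halves without mismatch, 339 of 926 listed, were a small part of the Arabidopsis tRF reads, and their share differed between tissues. They made 1.67% and 1.68% of the listed tRF reads in rosette leaf, 1.36% and 1.35% in stem leaf, 1.05% and 0.993% in flower, 0.654% and 0.578% in stem and 0.666% and 0.679% in silique. The leaf libraries lay above all others. The partition of the 10 libraries by tissue was the most extreme of 945 arrangements (exact permutation test, p = 0.001058, the smallest it can give, adjusted p = 0.001587 over 12 measures). The same p and adjusted p were reached by the plastid share, the shares starting at the third anticodon base and after the anticodon, the mean first position, the complete CCA share, the share of 40 nt and the mean length. The share starting at the second anticodon base did not pass (p = 0.07619, adjusted p = 0.07619, exact permutation).

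**Figure D2:**
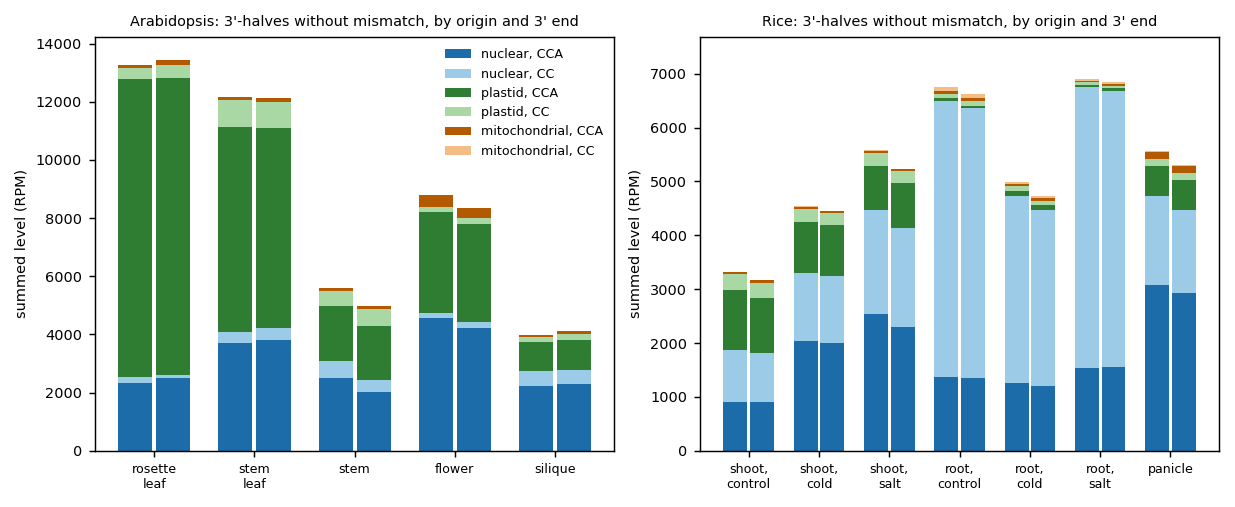
Summed level of the 3'-halves (RPM), 1 bar per library (2 per group), with the colours stacked by origin and by complete CCA or CC end, in Arabidopsis tissues and rice groups. Plastid fragments with a complete CCA fill most of the leaf bars of Arabidopsis, and nuclear fragments that end in CC fill most of the root bars of rice.

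The plastid share of the Arabidopsis 3'-half reads was highest in leaf. It was 80.1% and 79.4% in rosette leaf, 65.6% and 64.2% in stem leaf, 42.8% and 49.3% in stem, 41.4% and 42.6% in flower and 29.6% and 30.2% in silique. No 2 tissues overlapped, but the lower stem library lay just above the flower libraries. Plastid fragments with a complete CCA summed to 10257 and 10220.4 RPM in rosette leaf and to 987 and 1022 RPM in silique. The mitochondrial share was 0.850% to 2.27% in leaf, stem and silique and 4.73% and 4.51% in flower (any tissue, exact permutation p = 0.002116, adjusted p = 0.002822).

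Where the fragments began also differed between tissues. Position 36, the third anticodon base, held 34.1% of the reads in rosette leaf, 33.4% in stem leaf, 25.2% in stem and 27.3% in flower, but 9.61% in silique (means of 2 libraries). Stem had most of its reads at 37, with 35.8%, and silique at 41, in the anticodon stem, with 25.6%. The share that began in the loop was 54.3% and 54.2% in rosette leaf, 70.3% and 69.2% in stem leaf, 70.9% and 70.8% in stem, 56.7% and 57.4% in flower and 36.7% and 41.1% in silique. Stem lay just above stem leaf, and silique was below all others. Among the nuclear fragments alone, the mean first position was 37.4 to 38.2 in the other tissues and 39.2 and 39.3 in silique. One fragment, the plastid Leu-TAA 49-88, made up all reads at position 48, with 8.61% of the reads in rosette leaf and 3.46% in stem.

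**Figure D3:**
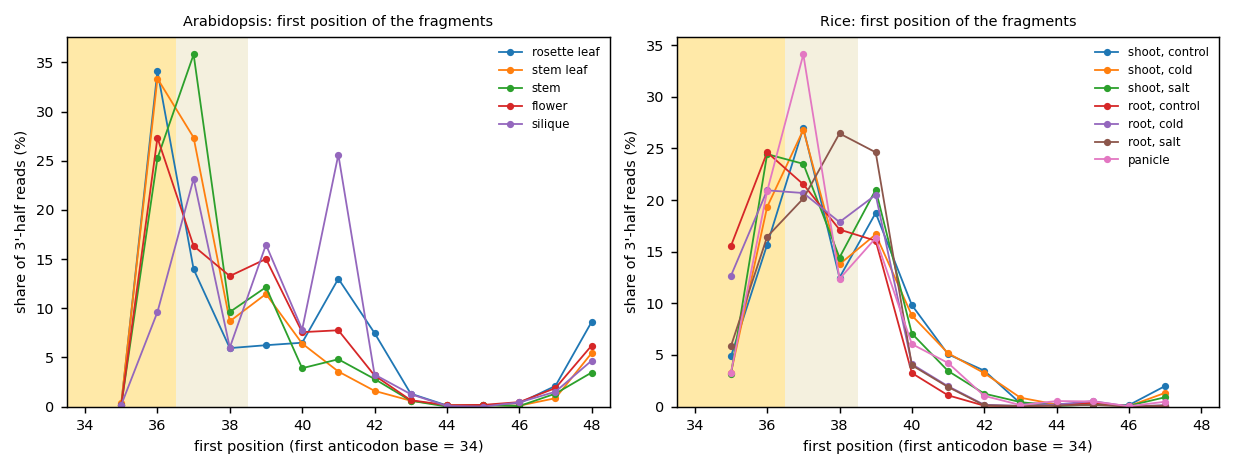
Share of the 3'-half reads (%, mean of 2 libraries) by the first position of the fragment, with the first anticodon base at 34, 1 line per group. Bands mark the anticodon and the rest of the anticodon loop. Silique peaks at 41 where the other Arabidopsis tissues peak at 36 or 37, and in rice control root has the highest value at 35.

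The complete CCA end separated the tissues in another order. It made 95.9% and 95.9% of the 3'-half reads in rosette leaf, 95.8% and 95.1% in flower, 89.5% and 89.4% in stem leaf, 82.5% and 82.5% in silique and 80.9% and 80.3% in stem. Rosette leaf and flower differed by less than 1 percentage point, and the others were apart. The order of the tissue groups was the same among the plastid fragments alone, at 95.9% to 96.5% in rosette leaf and 76.3% and 79.5% in stem. Among the nuclear fragments alone the neighbours at both ends were exchanged, with a mean of 95.5% in flower and 94.4% in rosette leaf, and of 82.5% in stem and 82.0% in silique. In the 66 pairs that differ only by the last A, the share was 93.9% and 94.2% in rosette leaf and 77.2% and 77.1% in stem (any tissue, adjusted p = 0.009235, exact permutation). Of 7 pairs with at least 20 reads in every library compared, 6 were lower in stem than in rosette leaf without overlap of the libraries, and none was higher. Among all tRF pairs of this kind 69.4% were lower, so the direction is that of tRFs at large. For stem leaf below rosette leaf the count was 10 of 19, with 2 higher, against 45.2% of all pairs, and for silique below flower 6 of 8 against 46.9%. These percentages include the 3'-half pairs. Of the other tRF pairs 19 of 29 were lower in stem than in rosette leaf, and none was higher. For stem leaf below rosette leaf it was 23 of 54, with 3 higher, and for silique below flower 17 of 41, with 5 higher.

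Single fragments showed how large the tissue differences were. The plastid Glu-TTC at_tR80 37-76, the most abundant, was at 2395 and 2367 RPM in rosette leaf, 1557 and 1599 in stem leaf, 397 and 383 in stem, 563 and 498 in flower and 29.9 and 66.7 in silique. Silique was 30.0-fold below the mean of leaf and stem (log2 difference −4.64, SE 0.23, limma adjusted p = 1.4e-07), below every other library. Its CC partner 37-75 was at 96.0 and 120.2 RPM in rosette leaf, 296 and 248 in stem leaf, 127 and 118 in stem, 28.0 and 20.2 in flower, and 0 and 4.76 in silique. The CC form was thus highest in stem leaf where the CCA form was highest in rosette leaf. The nuclear Gly-TCC at_tR92 36-75, which starts at the third anticodon base, was at 785 and 729.7 RPM in rosette leaf, 913 and 864 in stem leaf, 293 and 209 in stem, 681 and 575 in flower and 11.2 and 19.1 in silique. Silique lay below every other library, and stem below the leaves and flower (silique, log2 difference −5.14, SE 0.22, 41.8-fold lower, limma adjusted p = 3.7e-08).

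The plastid Leu-TAA at_tR119 49-88 was at 1169 and 1129 RPM in rosette leaf, 646 and 673 in stem leaf, 189 and 177 in stem, 549 and 515 in flower and 198 and 179 in silique. Stem and silique overlapped at the low end, and the other 3 tissues were apart from them. The nuclear Val-AAC at_tR223 38-77 varied less, from 82.2 RPM in a silique library to 309 in a stem library. The 3 fragments named as high in silique were all nuclear. Arg-TCT at_tR29 41-76 was at 123 and 109.6 RPM in silique and at 0 to 9.82 in leaf and stem, which is 19.9-fold (log2 difference 4.68, SE 1.05, limma adjusted p = 0.0095). Glu-TTC at_tR77 41-75 was at 52.3 and 90.5 RPM in silique and at 0 to 11.4 in leaf and stem. Both begin at the same base of their tRNA, 41, and the 2 Arg-TCT calls (at_tR28 and at_tR29) were lost when a silique library was left out. The plastid initiator Met-CAT at_tR141 38-77 had no read in silique, with 3 reads there worth up to 11.2 RPM, against 9.82 to 136 RPM in leaf and stem, a mean that was at least 8.18-fold higher.

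Across the table, 121 of the 339 Arabidopsis fragments (35.7%) differed in any tissue in limma at an adjusted p under 0.05, where 33.3% of all 5826 tRFs did. Without the first flower library the count was 76. In flower against the mean of leaf and stem, 16 were higher and 8 lower, against 5.58% and 2.73% of all tRFs, so neither count stood out. The median log2 difference was 0.63 for the 3'-halves and 0.49 for all tRFs, and with medians made equal the counts were 6 and 8. Of the called fragments 13 of the 16 higher ones were nuclear and 7 of the 8 lower ones plastid. Named examples were Gln-CTG at_tR65 36-75, at 46.6 and 37.1 RPM in flower and 0 to 15.4 in leaf and stem, and the plastid Gly-GCC at_tR90 36-74, at 31.1 and 26.0 RPM in flower and 46.2 to 260.3 in leaf and stem, and both calls were lost without a flower library. With either flower library left out the count of 24 fell to 3, and without a stem leaf library or the first rosette leaf library to 11 to 15. In silique 23 were higher and 52 lower, against 9.70% and 12.7% of all tRFs. As shares of the 339 these are 6.78% and 15.3%, so neither count stood far from the background. Among the 134 plastid fragments 40 were lower and 1 was higher, and among the 182 nuclear ones 22 were higher and 11 lower. The counts by origin, in flower and in silique, have no share of all tRFs of that origin beside them. They describe the 3'-halves only. The median log2 difference in silique was −1.03 for the 3'-halves and −0.60 for all tRFs. Without 1 silique library the count of 75 fell to 44 or 49.

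The rule kept 409 of 844 listed 3'-halves in rice and 339 of 926 in Arabidopsis, so the shares do not compare the whole class between species. In rice the 3'-halves without mismatch were a larger part of the listed tRF reads, and more so in root than in shoot. They made 5.31% and 5.01% of the listed tRF reads in control shoot, 6.35% and 6.22% in cold shoot, 7.35% and 6.79% in salt shoot, 11.9% and 11.7% in control root, 9.68% and 9.09% in cold root, 12.6% and 12.4% in salt root and 6.49% and 6.19% in panicle. All 6 root libraries lay above all 6 shoot libraries, by 5.04 percentage points on average (exact two-sided permutation test, p = 0.002165, the smallest it can give, adjusted p = 0.003711 over 12 measures). The 6 libraries of an organ hold 3 treatments, so this test sets organ against organ over all of them.

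Origin also separated the organs. The plastid share of the 3'-half reads was 42.2% and 41.2% in control shoot, 26.0% and 26.3% in cold shoot and 19.2% and 20.3% in salt shoot. It was 1.92% and 1.97% in control root, 3.56% and 3.44% in cold root, 1.22% and 1.30% in salt root and 12.2% and 13.1% in panicle. Root minus shoot was −26.95 points (p = 0.002165, adjusted p = 0.003711, exact permutation). In summed level, plastid fragments with a complete CCA had 1116 and 1017 RPM in the control shoots and 39.5 and 31.6 RPM in the control roots. The mitochondrial share was 0.740% to 2.62% over all rice libraries and did not pass the test between root and shoot (0.403 points, adjusted p = 0.1818).

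The last A of CCA divided the organs as well. The complete CCA made 62.1% and 62.2% of the 3'-half reads in control shoot, 66.7% and 67.0% in cold shoot, 60.7% and 60.6% in salt shoot and 67.6% and 68.2% in panicle. In control root it made 21.6% and 21.5%, in cold root 27.9% and 28.5% and in salt root 23.1% and 24%. No root library came near a shoot or panicle library, and the difference of −38.8 points between root and shoot passed the exact permutation test (adjusted p = 0.003711). It was −32.2 points among nuclear fragments alone (adjusted p = 0.008658 in that restricted set), −40.0 points without os_tR122, and −33.7 points within pairs that differ only by the last A. Among nuclear fragments the difference in summed level was larger for the CC forms. In control shoot, nuclear fragments ending in CC were at 967 and 899 RPM and those ending in CCA at 905 and 913 RPM. In control root the CC forms were at 5134 and 5024 RPM and the CCA forms at 1369 and 1349.7 RPM. Among plastid fragments both forms were lower in root, the CCA forms as given above and the CC forms with 90.6 and 99.1 RPM there against 287 and 290.1 RPM in shoot.

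**Figure D4:**
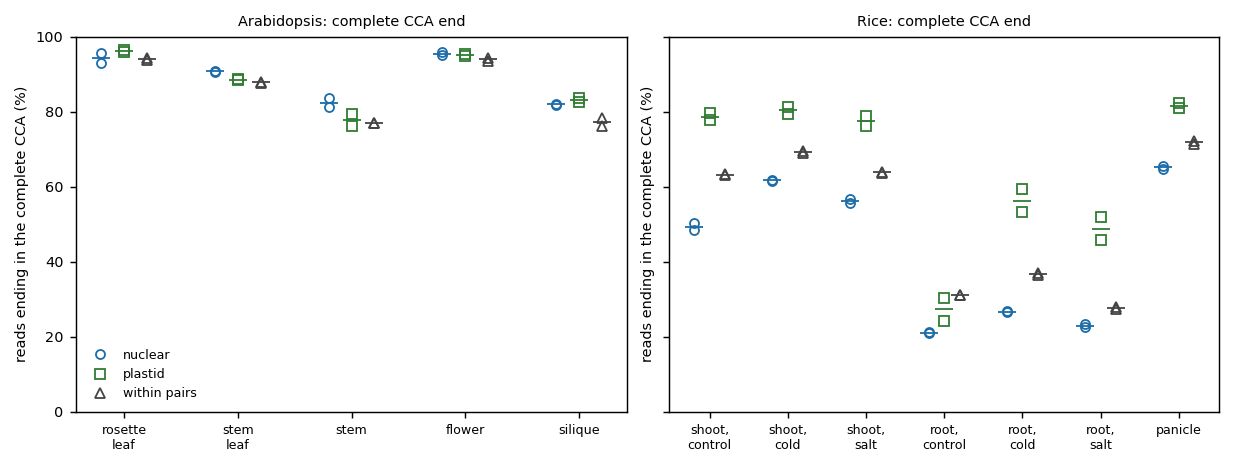
Share of 3'-half reads that end in the complete CCA (%), 1 open symbol per library and a bar at the group mean, for nuclear fragments (circles), plastid fragments (squares) and pairs that differ only by the last A (triangles). In the rice root groups the nuclear share lies between 21.0% and 26.9%, below every shoot and panicle library.

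Pair by pair the direction was nearly the same. Of 35 rice pairs with at least 20 reads in every library of control root and control shoot, 31 had a lower CCA share in root without overlap and 1 a higher one, with a median difference of −21.6 points, where 80.0% of all tRF pairs were lower. Under cold 61 of 75 were lower and 3 higher, against 74.3% of all pairs, and under salt 54 of 54 were lower, against 90.9%. Against panicle 74 of 74 were lower in control root, against 96.5% of all pairs. These percentages include the 3'-half pairs. Of the other tRF pairs 25 of 35 were lower in control root than in control shoot, and 1 was higher. Under cold 43 of 65 of them were lower and 3 higher. Under salt 16 of 23 were lower, and against panicle 37 of 41, with none higher in either. The other pairs thus moved the same way, and the shift is not one of 3'-halves alone. The tRF-3 fragments, which begin at position 41 or later, had a mean complete CCA share of 73.0% in root and 91.3% in shoot (exact permutation p = 0.0021645). In every one of the 14 rice libraries the share was lower in the 3'-halves than in tRF-3, by 25.6 to 49.2 points (exact sign-flip permutation, adjusted p = 0.000244). In Arabidopsis it was lower in 8 of 10 libraries, by 2.49 points on average (adjusted p = 0.0410, exact sign-flip permutation). No listed tRF is longer than 40 nt, so the 58 rice 3'-halves of 40 nt that end in CC cannot have a listed CCA form. Among fragments of both classes whose CCA form is at most 40 nt, a choice made after seeing the data, the share was lower in the 3'-halves in all 14 rice libraries, by 17.7 to 44.0 points (exact sign-flip permutation, adjusted p = 0.000244). In Arabidopsis the difference then did not pass the test, at −1.45 points with 7 of 10 libraries lower (adjusted p = 0.129, exact sign-flip permutation).

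The most abundant parent shows the forms side by side. Gly-GCC os_tR122 34-73, a 40-nt CC form that starts at the second anticodon base, was at 100.2 and 85.5 RPM in control shoot and 558 and 514 in control root. It fell with cold to 277 and 247 RPM and with salt to 182 and 168 in root, and lay at 91.6 and 87.4 RPM in panicle. The form 37-73, which starts after the anticodon, was at 121 and 95.6 RPM in control shoot, 331 and 328 in control root, 252 and 243 in cold root and 502 and 493 in salt root. The 2 starts of the same tRNA therefore went opposite ways under salt in root, down for 34-73 and up for 37-73. The CCA form 37-74 was at 21.8 and 25.5 RPM in control shoot, 38.1 and 33.1 in control root and 54.7 and 52.1 in panicle, and its root to shoot difference did not pass the test (log2 difference 0.57, SE 0.33, limma adjusted p = 0.162). Its share of the pair was 15.2% and 21.0% in control shoot, 10.3% and 9.17% in control root, 4.42% and 5.16% in salt root and 32.9% and 34.1% in panicle.

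Start sites differed between rice organs. The second anticodon base, position 35, held 16.0% and 15.2% of the reads in control root, 13.0% and 12.4% in cold root, 6.07% and 5.65% in salt root, 2.94% to 4.98% in the shoots and 3.21% and 3.35% in panicle. All 6 root libraries were above all shoot libraries, by 7.62 points (adjusted p = 0.003711, exact permutation). All 19 fragments at this position end in CC, since their CCA forms would exceed 40 nt. Their median log2 difference between control root and control shoot was 2.44, and that of all nuclear CC fragments 2.01. The mean first position was 0.605 nt lower in root (adjusted p = 0.003711), and 0.254 nt lower among fragments whose CCA form is at most 40 nt (adjusted p = 0.03896). The share starting at the third anticodon base did not pass the test between organs (0.849 points, adjusted p = 0.7792), nor did the share after it (−8.47 points, adjusted p = 0.0552), the share of 40 nt (−1.94 points, adjusted p = 0.6338) or the mean length (0.0112 nt, adjusted p = 0.9069). Among the fragments whose CCA form is at most 40 nt all 4 passed. The third anticodon base had −5.84 points (exact permutation, adjusted p = 0.02597). Starts after the anticodon had 5.80 points, where the sign turned (adjusted p = 0.02886, exact permutation). The values were −17.6 points for 40 nt and −0.356 nt for the mean length (both adjusted p = 0.003711, exact permutation). That limit drops all 40-nt CC fragments, so every 40-nt fragment left ends in CCA. These 4 measures, and the mean first position under the same limit, are thus tied to the 3' end. The share at position 35, where every fragment ends in CC, and the mean first position of all fragments are tied to it too. None of these is a result separate from the lower complete CCA share in root. Salt root had its largest share at position 38, with 26.5%, and panicle at 37, with 34.1%.

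Between control root and control shoot 174 of the 409 rice fragments (42.5%) were higher in root and 67 (16.4%) lower, against 21.9% and 27.5% of all 2794 tRFs. The median log2 difference was 0.96 for the 3'-halves and −0.22 for all tRFs. Of 67 plastid fragments 54 were lower and none higher. Of 165 nuclear CC fragments 131 were higher and none lower, with a median of 2.01. Of 160 nuclear CCA fragments 38 were higher and 11 lower, with a median of 0.49. Among the 17 mitochondrial fragments 5 were higher and 2 lower. Over all origins 135 of the 193 CC fragments were higher and 14 lower, and of the 216 CCA fragments 39 and 53. Of the tRF-3 without mismatch, 26 of 103 CC fragments were higher and 41 lower, and of 526 CCA fragments 14 and 230. In both classes a larger part of the CC than of the CCA fragments was thus higher in root. The counts by origin have no share of all tRFs beside them.

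**Figure D5:**
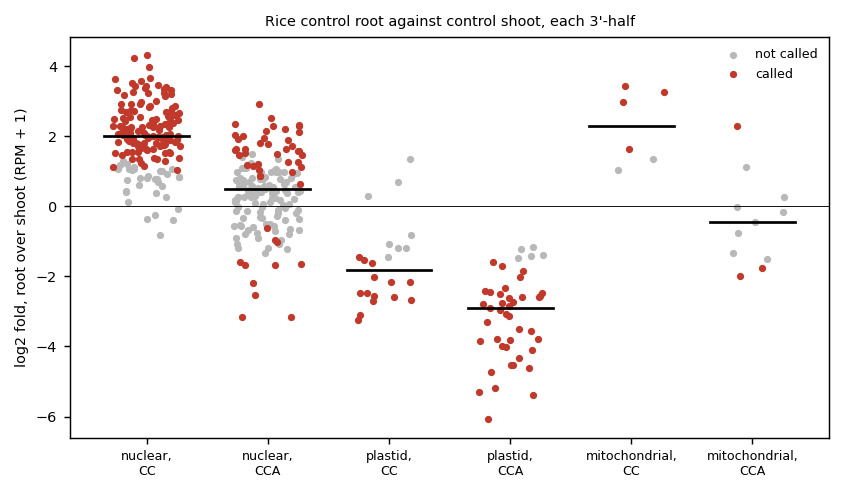
Difference between control root and control shoot of rice for each 3'-half without mismatch, on the log2(RPM + 1) scale, split by origin and by CC or CCA end, with the called fragments (limma, adjusted p under 0.05) in red and a bar at each median. The nuclear CC fragments have a median of 2.01 and none is called lower, and no plastid fragment is called higher.

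Glu-CTC os_tR92 38-75, which starts after the anticodon and fits 6 tRNAs, was at 15.4 and 13.7 RPM in control shoot and 289.5 and 294 in control root. It was at 48.9 and 35.7 RPM in cold shoot, 61.4 and 51.2 in salt shoot, 222 and 191 in cold root, 184 and 171 in salt root and 106 and 86.4 in panicle. Root lay above shoot in every treatment (controls, log2 difference 4.24, SE 0.17, limma adjusted p = 2.0e-13). Gly-TCC os_tR124 38-74 was at 0.907 and 0.572 RPM in control shoot, from 2 reads each, and at 36 and 31.0 RPM in control root (log2 difference 4.31, SE 0.32, adjusted p = 2.5e-09). Ile-AAT os_tR141 37-76 was at 60.7 and 53.8 RPM in control shoot, 297 and 273 in control root, and 28.0 and 25.2 in panicle. On the other side, the plastid Gly-GCC os_tR114 41-74 was at 71.2 and 62.7 RPM in control shoot and had no read in control root, at least 65.0-fold lower with a floor of 3 reads in the shallower root library. The plastid Met-CAT os_tR178 41-77 was at 39.9 and 41.8 RPM in control shoot and also had no read in control root, at least 39.7-fold lower.

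Calls in panicle divided by the 3' end. Against the mean of control shoot and control root, 147 fragments were higher and 31 lower in panicle, against 36.2% and 9.06% of all tRFs. As shares of the 409 these are 35.9% and 7.58%, near the background, so neither count stands out. Of the 216 CCA fragments 132 were higher and none lower, and of the 193 CC fragments 15 were higher and 31 lower. The tRF-3 without mismatch divided the same way, with 274 of 526 CCA fragments higher and 5 lower, and 8 of 103 CC fragments higher and 18 lower. The median log2 difference of all tRFs was 0.62, and with medians made equal the counts were 71 higher and 70 lower. Without the first panicle library the count of 178 fell to 109. Trp-CCA os_tR268 40-75 was at 41.2 and 39 RPM in panicle and at 1.72 to 4.12 in the control libraries (log2 difference 3.50, SE 0.40, limma adjusted p = 1.5e-06). Gln-TTG os_tR82 36-75 was at 62.1 and 60.6 RPM in panicle and at 1.14 to 12 in the controls. Both had all panicle libraries above all control libraries. Ile-AAT os_tR141 40-76, a CC form, was at 8.36 and 4.04 RPM in panicle, below the 14.6 to 65.4 RPM of the controls.

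Under cold and salt 109 and 194 3'-halves were called in shoot and 21 and 46 in root. With only the groups compared in the fit the counts were 93 in cold shoot, 88 in salt shoot, 58 in cold root and 93 in salt root, so the order of shoot and root under salt depends on the fit. In cold shoot 98 fragments were higher and 11 lower than in control shoot, against 9.99% and 5.12% of all tRFs, and 72 of the 98 were nuclear with a complete CCA. In salt shoot 166 (40.6%) were higher and 28 lower, against 17.4% and 13.8% of all tRFs, with 82 nuclear CC and 82 nuclear CCA fragments among the higher ones. The median log2 difference was 0.59 under cold and 0.88 under salt, where all tRFs had 0.09 and 0.01. None of the 67 plastid fragments was higher in cold shoot, and 5 were lower. In salt shoot 2 plastid fragments were higher and 13 lower. Of the tRF-3 without mismatch, 74 of 526 CCA fragments were higher and 17 lower in cold shoot, and 59 and 85 in salt shoot. Of their 103 CC fragments 5 were higher and 7 lower in cold shoot, and 8 and 18 in salt shoot. The counts by origin and 3' end have no share of all tRFs of that class beside them. Without the first control shoot library the cold count of 109 fell to 72.

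The nuclear Glu-TTC os_tR105 38-77, which starts at the third anticodon base, was at 1.81 and 0 RPM in control shoot (4 and 0 reads), 24.2 and 29.6 in cold shoot and 78.2 and 51.9 in salt shoot. In root it stayed at 1.72 to 4.85 RPM in all treatments, and panicle had 12.2 and 11.3. All stressed shoot libraries were above the control shoot libraries (salt, log2 difference 5.27, SE 0.45, limma adjusted p = 7.6e-08). Asp-GTC os_tR51 36-75 was at 0 and 3.15 RPM in control shoot, 14.5 and 10.9 in cold shoot and 39.1 and 42.9 in salt shoot. Gly-CCC os_tR109 35-74 went from 0 and 0.572 RPM to 32.4 and 35.3 under salt. Thr-CGT os_tR255 40-75 was higher under cold than under salt, at 50.8 and 38.1 against 24.6 and 16.6 RPM, from 2.72 and 1.72 in control shoot (cold, log2 difference 3.82, SE 0.48, adjusted p = 2.1e-05). Among the fragments that fell, Asn-GTT os_tR37 35-74 went from 17.2 and 21.2 RPM in control shoot to 4.84 and 4.54 under cold and 2.23 and 7.61 under salt, where its call was lost in a fit of those 2 groups alone (limma adjusted p = 0.0613). Ile-AAT os_tR141 40-77 went from 46.2 and 69.8 to 14.5 and 20.6 RPM under cold. The plastid Gly-GCC os_tR114 39-74 went from 44.0 and 48.1 RPM to 12.3 and 12.4 under salt.

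Cold root had 10 higher and 11 lower fragments, against 5.87% and 3.51% of all tRFs, and 8 of the 10 higher ones were plastid. With medians made equal these counts were 8 and 17. With only the groups compared 58 were called, 11 higher and 47 lower. Without 1 library of control or cold root the count of 21 fell to 5 to 10, and without a salt shoot library it was 36 or 37. The fragments named for this comparison, with a mean of at least 10 RPM in the libraries compared, all changed by little more than 2-fold. Among them Phe-GAA os_tR198 41-76 was at 6.86 and 7.90 RPM in control root and 18.9 and 15.6 in cold root. Its call was lost without any 1 of those 4 libraries. Glu-TTC os_tR102 37-76, not named here but described further below, had a larger log2 difference in cold root, 3.31. Salt root had 33 higher and 13 lower fragments, against 4.94% and 5.65% of all tRFs. Of the 33, 24 were nuclear CC fragments. Val-AAC os_tR284 39-76 went from 18.9 and 19.2 RPM to 80.6 and 82.0 under salt (log2 difference 2.04, SE 0.28, 4.27-fold, limma adjusted p = 5.1e-05). Thr-TGT os_tR261 39-74 went from 6.52 and 4.27 to 39.1 and 27.2 RPM. Gly-GCC os_tR122 34-73 and Glu-CTC os_tR92 36-75, which start within the anticodon, fell 3.06-fold and 3.02-fold (adjusted p = 3.5e-07 and 2.5e-06). Of the 19 fragments that start at the second anticodon base 5 were lower and none higher in salt root, while of the 307 that start after the anticodon 32 were higher and 5 lower. Of the tRF-3 without mismatch in salt root, 0 of 103 CC fragments were higher and 9 lower, and of 526 CCA fragments 8 and 24. The counts by origin, 3' end and start have no share of all tRFs of that class beside them. Without 1 library of control or salt root the salt count of 46 fell to 20 to 24, and with only the groups compared it was 93, 57 higher and 36 lower. The difference between root and shoot effects was tested too, a comparison chosen after seeing the data. For cold it was called higher in root for 4 fragments and lower for 60, against 4.29% and 5.26% of all tRFs, and for salt for 10 and 75, against 7.09% and 9.63%.

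The plastid share was also set beside that of other tRF classes. In Arabidopsis their plastid share was above that of the 5'-halves without mismatch in all 10 libraries, by 32.3 points on average (exact sign-flip permutation, adjusted p = 0.00293). In rice it was below in all 14, by 11.8 points (adjusted p = 0.000244, exact sign-flip permutation). The rice groups stood in the same order in both classes. Their mean plastid share was 41.7%, 26.1% and 19.7% in control, cold and salt shoot, 12.6% in panicle and 3.50%, 1.95% and 1.26% in cold, control and salt root for the 3'-halves, and 59.9%, 48.7%, 39.1%, 27.7%, 7.92%, 3.52% and 2.45% for the 5'-halves. In Arabidopsis both fell from rosette leaf (79.7% and 47.5%) through stem leaf (64.9% and 21.8%) to stem (46.1% and 15.4%). Flower was above silique for the 3'-halves (42.0% and 29.9%) and below it for the 5'-halves (7.76% and 8.80%). Against tRF-3 the plastid share of the 3'-halves was lower in all 14 rice libraries, by 34.3 points on average. In Arabidopsis it was lower by 17.0 points on average, with 2 of 10 libraries higher (exact sign-flip permutation, adjusted p = 0.000244 and 0.0164). The groups of tRF-3 stood in another order. Their mean plastid share in Arabidopsis was 90.7% in stem leaf, 79.5% in stem, 71.2% in rosette leaf, 58.2% in flower and 47.9% in silique. In rice only control and salt root were exchanged, at 17.6% and 19.0%. A listed 5' fragment without mismatch that ends directly before the start of the 3'-half was found for 120 Arabidopsis and 131 rice fragments.

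The balance of the 2 sides, counted from fragments without mismatch only, differed between families. In Arabidopsis the sum of the nuclear Gly-TCC 3'-halves was 1383 ± 48.3 RPM in stem leaf and 150.5 ± 3.94 in silique (SD, n = 2), while the 5'-halves of the same family summed to 88721 and 23882 RPM. For Gly-TCC at_tR92 36-75, the 5' fragment that ends directly before it was the more abundant in all 10 libraries. The Arabidopsis plastid Glu-TTC, plastid Asn-GTT and nuclear Val-AAC families had no listed 5'-half without mismatch, nor did the rice Val-AAC, Ile-AAT and plastid Pro-TGG families. Listed 5'-halves with a mismatch were not counted, so this does not show that these families lack 5'-halves. In the rice nuclear Gly-GCC family the order was the reverse, with 584 to 1927 RPM in 3'-halves and 18.9 to 72.2 RPM in 5'-halves over the 7 groups. In the rice nuclear Glu-CTC family control shoot had 78.9 RPM in 3'-halves and 669 in 5'-halves, and control root 884 and 989.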

How the data were processed

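The deposited tables give each tRF and each tRNA per library as log2 of 1 plus RPM, per the file headers, with the authors' class and sequence of every fragment. Adapters were trimmed with cutadapt and TAIR10 was the genome, per the submitters' processing notes. For the aligner, the length limits, the handling of fragments with several parents and the rice build the sources used here give nothing. RPM taken back from the deposited values gave whole reads in every library, within a tolerance of 0.05 reads.

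The members and lists were chosen with earlier results of these data known. Each fragment was matched to the listed tRNAs by exact sequence, placed with the first anticodon base at 34, and given an origin from the loci of its parents. The loci of the tRNA tables start 1 base early and were shifted to 1-based positions. Shares weight fragments by RPM within a library. They were tested by exact permutation over libraries, coded with NumPy 2.4.6, with Benjamini-Hochberg adjustment over 12 measures for each kind of test. For stress against control of a share the smallest p is 0.333333, so those values have no test. Fragments were tested with limma 3.58.1 in R 4.3.3 (trend, 1 mean per group) on log2(RPM + 1) over all listed tRFs, all of which had a mean of at least 1 RPM, with Benjamini-Hochberg adjustment over the whole table and a threshold of 0.05. Fold changes compare mean RPM, and log2 differences are on the log2(RPM + 1) scale, which understates changes of low fragments. Floors of 3 reads and p-values cover counting error and the spread between these libraries only. Reads carry no molecular identifiers in the sources used here. No count model was run, because the deposited unit is log2.

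Named fragments were the 6 most abundant of a species, the most abundant of each origin, start and end class, the 3 largest folds per direction among called fragments of at least 10 RPM whose libraries did not overlap, and the 3 most abundant pairs. Same-numbered Arabidopsis libraries deviated together in 10 of 10 group pairs (r 0.147 to 0.404 over 751 fragments). The number also goes with depth, so pairing and depth cannot be told apart. The main tests do not use the number, and the replicate block does. The scripts were tested on simulated data. Alternatives were another pseudocount, another filter, medians made equal, a replicate block, only the groups compared, and each library left out. Comparisons of root with shoot effects, and the limits to fragments whose CCA form is at most 40 nt, to nuclear fragments or to other parents, were added after seeing the data.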

Additional observations from a re-analysis of the deposited data

Results flagged for a closer look

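Cold and salt effects were compared between root and shoot of rice, a comparison chosen after seeing the data, by an interaction in limma over all tRFs. The cold effect differed for 64 fragments, and the salt effect for 85. For cold it was higher in root for 4 (0.978%) and lower for 60 (14.7%), against 4.29% and 5.26% of all tRFs. For salt it was higher for 10 (2.44%) and lower for 75 (18.3%), against 7.09% and 9.63%. The cold count was 37 to 40 without a cold root library or the second control root library, and 103 without either salt shoot library. The salt count was 55 without the first salt root library and 133 without the second salt shoot library.

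Thr-CGT os_tR255 35-74 changed by 2.90 (log2) in cold shoot and by −1.18 in cold root, a difference of −4.08 (SE 0.42, limma adjusted p = 3.3e-06). Thr-CGT os_tR255 40-75, another start of the same tRNA, differed by −3.11 (SE 0.67, adjusted p = 0.00534). Glu-TTC os_tR102 37-76 went the other way, with 0.08 in cold shoot and 3.31 in cold root, a difference of 3.23 (SE 0.50, adjusted p = 2.9e-04). Under salt, Gly-GCC os_tR115 35-74 changed by 3.66 in shoot and −1.30 in root, a difference of −4.95 (SE 0.62, adjusted p = 1.5e-05). Glu-TTC os_tR105 38-77 differed by −4.62 (SE 0.64, adjusted p = 5.3e-05) and Glu-CTC os_tR92 37-76 by −4.16 (SE 0.41, adjusted p = 7.8e-07). These 6 were chosen for the size of that difference.

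Several shares moved one way in both stressed shoot libraries and the other way in both stressed root libraries, and these differences were not tested. Under cold, the share of 3'-halves without mismatch among the tRF reads was higher in shoot and lower in root than in the controls, with root minus shoot −3.53 points. The plastid share was lower in shoot and higher in root (17.1 points), and the nuclear share the reverse (−17.6 points). Start sites moved in opposite directions too. For the third anticodon base the difference was −7.33 points under cold and −16.9 under salt, for starts after the anticodon 8.73 and 25.0 points, and for starts in the loop −9.84 and −15.5 points. The mean first position differed by 0.389 nt under cold and 0.951 nt under salt, and by 0.659 nt under salt among nuclear fragments. The share of 40 nt differed by −10.1 and −22.0 points and the mean length by −0.300 and −0.716 nt. Under salt the complete CCA share differed by 3.49 points, while within pairs that differ only by the last A it differed by −4.09 points.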

How the results depend on the processing

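Of 671 alternatives for the shares 660 stayed on the same side of the threshold, and of 218 for the counts 181 stayed within 1.5-fold. Direction was checked only for root against shoot shares that passed the test. Shares that did not pass could change sign. With a library left out, root minus shoot was −0.0254 to 1.84 points for the third anticodon base and −0.0346 to 0.0642 nt for the mean length. No named fragment reversed in 913 alternatives, and 58 lost their call. Among fragments whose CCA form is at most 40 nt, which leaves out starts at the second anticodon base (0 in both tests), root minus shoot in rice was −5.84 points for the third anticodon base, 5.80 for starts after the anticodon, the sign opposite to that of all fragments, −17.6 for 40 nt and −0.356 nt for the mean length, all past the threshold. Every 40-nt fragment left by that limit ends in CCA, so these values are tied to the complete CCA share. The same limit took the Arabidopsis difference in CCA share between 3'-halves and tRF-3 to −1.45 points, short of the threshold. The share after the anticodon was −9.87 points without os_tR122 and −10.53 to −6.84 with a library left out. At a mean of at least 10 RPM the mitochondrial difference was 0.227 points and passed the test, and 102 fragments were called between root and shoot, 81 in panicle, 70 in cold shoot, 34 in cold root and 96 in salt shoot, of 131 tested. With only the groups compared the counts were 58 in cold root, 88 in salt shoot and 93 in salt root. In flower 40 were called with a pseudocount of 5 RPM and 14 with medians made equal. With a library left out the counts ran from 76 to 129 (any tissue), 3 to 29 (flower), 44 to 95 (silique), 109 to 198 (panicle), 72 to 148 (cold shoot), 5 to 37 (cold root), 20 to 69 (salt root), 37 to 103 (cold, root minus shoot) and 55 to 133 (salt, root minus shoot). The lowest came without the first flower library (any tissue), either flower library, the first silique, panicle, control shoot and cold root libraries, and the second control root library (salt root). Apart from fewer fragments or libraries tested, the cause was not tested. The replicate block changed no call of a share and no count by over 1.5-fold, with 130 fragments called in any tissue, 27 in flower, 79 in silique and 244 between root and shoot. Same-numbered rice libraries did not deviate together throughout (r −0.062 to 0.210, over 0.1 in 5 of 21 group pairs). Depth limits most of all the fragments at 0 to 3 reads.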
